A study of Mus musculus with 22 samples.

Results

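The actin loci Actb and Fscn1 were examined in a window of 250 kb on mouse chromosome 5, from 143550000 to 143800000 (mm9), in ATAC-seq peak lists of retinal endothelial cells. Members were chosen by the position of their midpoint in this window, which held 60 of the 50178 gTKO peaks and 79 of the 58311 control peaks. The locus itself was picked on peak positions and widths already seen in these lists, so all values below describe it and none is a test. Actb lies at about 143.66 Mb and Fscn1 at about 143.72 Mb. No mm9 annotation was used here, so "Actb side" and "Fscn1 side" stand for the 10 kb that begin at these positions. Whether a peak covers a promoter, an exon or an intron is not given. All other sequence of the window is called distal, whether or not it lies in or near another gene.

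Cells came from C57BL/6 pups at postnatal day 6, sorted by FACS as retinal endothelial cells, and each library pooled the retinas of several pups. The gTKO pups (3 libraries) were S1pr3-/- S1pr1flox/flox S1pr2flox/flox Rosa26-CreERT2. The control pups (3 libraries) were S1pr3-/- S1pr1flox/flox S1pr2flox/flox, with no Cre. Both genotypes thus lacked S1pr3, and both received 100 µg tamoxifen by intraperitoneal injection from day 1 to day 3. Rosa26 drives the recombinase in most cell types, so the deletion of S1pr1 and S1pr2 was by design not limited to endothelium. The cell type label also calls the cells adult, against the stated age. Deletion of the receptors and the identity of the sorted cells were not checked here, since the lists hold positions only. Each genotype has 1 list for its 3 libraries, without score, summit or p-value, so no value has a replicate error. The read depth behind either list is unknown. Fewer cells with an accessible site and lower accessibility per cell cannot be told apart in such data.

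Actb encodes beta-actin, a cytoplasmic actin that polymerises into the filaments of the cell cortex, of stress fibres and of cell protrusions. Fscn1 encodes fascin, which bundles actin filaments into the parallel arrays that stiffen filopodia, the thin protrusions with which endothelial tip cells explore the retina as the vascular plexus spreads. S1P receptors couple to heterotrimeric G proteins. ATAC-seq marks the DNA that the Tn5 transposase can reach, mostly promoters and enhancers. In the GRCm38.p6 annotation of RefSeq, the protein-coding genes on this part of the chromosome are, in order, Tnrc18, Fbxl18, Actb, Fscn1 and Rnf216. Only this order was taken from that build.

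A promoter sequence was found in the RefSeq table for 1 of the 2 genes, Fscn1. It is shown because peaks of both lists lay on the Fscn1 side and because the study is about AP-1, a family of transcription factors with known target letters. The stretch holds the 250 bases before the start of Fscn1 on the plus strand of chromosome 5 (GRCm38.p6), with 62.4% G or C against a median of 52.4% over 32851 promoters of the table. Capitals mark the cyclic AMP response element TGACGTCA and the TATA box TATAAA.
Fscn1: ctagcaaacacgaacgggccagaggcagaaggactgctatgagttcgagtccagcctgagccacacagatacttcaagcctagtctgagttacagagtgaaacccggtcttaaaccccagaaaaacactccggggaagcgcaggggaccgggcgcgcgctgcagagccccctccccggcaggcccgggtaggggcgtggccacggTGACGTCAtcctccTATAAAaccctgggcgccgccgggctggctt
The cyclic AMP response element, to which CREB and ATF proteins and some AP-1 dimers are known to bind, spans bases 45 to 38 before the start, and 1.55% of all promoters hold these letters. The TATA box spans bases 31 to 26 before the start, and its letters occur in 12.4% of promoters. Neither TGANTCA, the letters of an AP-1 site (6.75% of promoters), nor a CArG box, the site of serum response factor (1.47%), was present in this stretch. All 4 were searched on both strands, over the same 250 bases of each promoter, and the matches found in Fscn1 do not overlap. These are matches of letters and were not set beside the peaks, whose build differs.

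Around Actb and Fscn1, the gTKO list covered much less sequence than the control list, and most of the difference lay in distal sequence below Actb. In the whole window, gTKO peaks covered 30307 bp and control peaks 64703 bp, so that the gTKO cover was 46.8% of the control cover, against 77.1% over all placed chromosomes. Of the gTKO peaks, 4 of 60 had no partner, that is, no control peak that overlapped by at least 1 bp (6.67%, 95% Clopper-Pearson interval 1.85 to 16.2%), against 9.75% in the whole gTKO list. Of the control peaks, 38 of 79 had no partner (48.1%, interval 36.7 to 59.6%), against 27.0% in the whole control list. These intervals cover counting error alone and treat peaks as independent, which neighbouring peaks are not. Of the gTKO sequence, 28905 of 30307 bp (95.4%) lay inside control peaks, close to the 92.8% over all placed chromosomes. The shared sequence was 44.7% of the control cover, against 71.5% over all placed chromosomes.

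**Figure D1:**
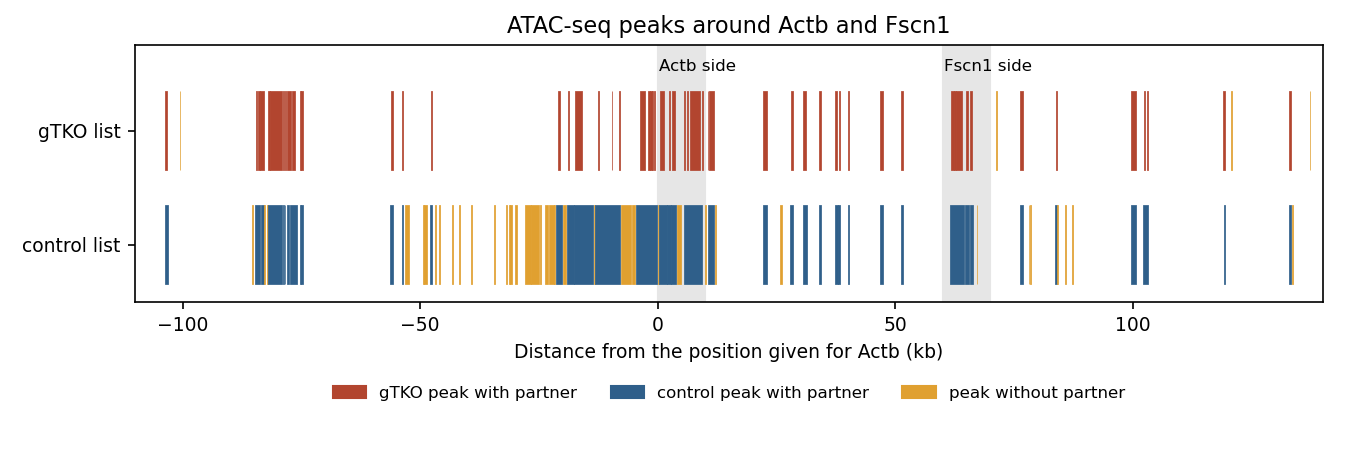
Peaks of the gTKO list (upper row) and the control list (lower row) along the window, with distance in kb from the position given for Actb on the horizontal axis. Grey bands mark the 10 kb of the Actb side and of the Fscn1 side, and orange marks peaks without a partner. Bars have a thin outline so that the narrowest peaks can be seen. In the 30 kb below the Actb side, control peaks fill 85.2% of the sequence, with wider gaps in the lowest 10 kb, and gTKO peaks fill 16.7%.

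The difference between the lists was not even along the window. A larger part of the control sequence was also covered in the gTKO list on the sides of the 2 genes than in the distal stretches. On the gene sides, gTKO peaks covered 7612 bp and control peaks 13020 bp, and 56.8% of the control sequence was shared. In the distal stretches, gTKO peaks covered 22695 bp and control peaks 51683 bp, and 41.6% was shared. All 12 gTKO peaks of the gene sides had a partner, and 3 of 10 control peaks there had none (30.0%, near the 27.0% of the whole list). In the distal stretches, 4 of 48 gTKO peaks (8.33%) and 35 of 69 control peaks (50.7%) had none. The whole-list shares were 9.75% and 27.0%. Read by single stretches, the low distal value came mostly from below Actb, as the next paragraphs show. Of 30175 bp of distal control sequence not shared, 26126 bp lay there. The shared part of the control sequence was 33.8% below Actb, 49.1% on the Actb side and 70.7% between the genes. It was 71.8% on the Fscn1 side and 61.1% above it. The stretch above Fscn1 was thus also under the 71.5% of all placed chromosomes. Thus the Actb side was lower than the distal sequence between the genes.

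Far below Actb, a dense group of peaks was present in both lists. From 143574686 to 143585383 (10698 bp), 11 gTKO peaks filled 66.7% of the sequence and 12 control peaks filled 80.5%. Of the control sequence there, 79.9% was shared. The widest gTKO peak of the window, 143578491 to 143580868 (2378 bp), lay in the control peak from 143577899 to 143580890 (2992 bp), and its end differed from that of the control peak by 22 bp. With a second gTKO peak of 331 bp it covered 90.5% of that control peak, the highest share among the 7 control peaks of at least 2 kb in the window. gTKO peaks of 323 and 526 bp lay in the control peak from 143575286 to 143576342 (1057 bp), and a gTKO peak of 767 bp stood opposite the narrower control peak from 143576477 to 143577168 (692 bp). At the upper end of the group, a gTKO peak of 513 bp extended beyond both ends of a control peak of 466 bp. Next to these, the gTKO peak from 143581900 to 143582899 (1000 bp) and one of 780 bp stood opposite the control peak from 143582579 to 143584104 (1526 bp). The first of them also covered a whole control peak of 603 bp. The control peaks of this group without a partner were 3 narrow ones, of 157, 208 and 237 bp.

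The sequence from 60 to 30 kb below the Actb position held scattered control peaks and few gTKO peaks. This stretch and the next, of 30 kb each, were set after the lists had been seen. The gTKO list covered 937 bp there and the control list 4690 bp. The gTKO peaks were of 469, 150 and 318 bp, and each lay within a control peak, of 552, 155 and 347 bp. Beyond the last of them no gTKO peak followed for 26543 bp. In this gap were 16 control peaks in a row without a partner, from 143613134 to 143638423, which covered 7674 bp in all. They were 152 to 1761 bp wide. Both the gap and the run reached into the next stretch, the 30 kb directly below Actb, which held the 2 of them that exceeded 1 kb. The placed control list held 10342 such runs of neighbouring peaks without a partner. Of these, 12 were of 16 or more peaks, this one included, and the longest was of 61. Before the run, the control peaks from 143606918 to 143607563 (646 bp) and from 143610922 to 143611441 (520 bp) also lacked a partner.

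The 30 kb directly below the Actb position showed the largest difference in covered sequence among the stretches described here. Here gTKO peaks covered 5017 bp, which is 16.7% of the sequence, and control peaks covered 25554 bp, or 85.2%. The control cover was 5.09 times the gTKO cover, and the 20537 bp between them made up 59.7% of the net difference of the whole window. All the gTKO sequence in these 30 kb lay inside control peaks, as did 92.8% of it over all placed chromosomes. Control peaks of at least 1 kb numbered 8, and a median of 16.7% of their sequence was covered in the gTKO list (range 0 to 55.4%). The 9 such control peaks elsewhere in the window had a median of 72.1% (range 42.8 to 90.5%), and the 8738 in the whole list a median of 86.2%.

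A control peak from 143629910 to 143630311 (402 bp), without a partner, lay across the lower end of this stretch. After a gap of 1729 bp came the control peaks from 143632041 to 143633247 (1207 bp) and from 143633273 to 143635033 (1761 bp), which lay 25 bp apart. Neither had a partner, and the nearest gTKO peak was 5801 bp away from the first and 4015 bp from the second. Next were control peaks from 143636178 to 143636926 (749 bp) and from 143637182 to 143638096 (915 bp) and narrower ones of 273 and 226 bp, again with none. The next gTKO peak, of 362 bp, lay within the control peak from 143638527 to 143639823 (1297 bp) and covered 27.9% of it. The control peak from 143640064 to 143640786 (723 bp) had no partner, and a gTKO peak of 324 bp covered 24.1% of the next one, from 143641009 to 143642351 (1343 bp). The first 10 kb of the stretch thus held 362 bp in the gTKO list and 6739 bp in the control list.

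Toward Actb the control peaks became wider. A single gTKO peak, from 143642554 to 143643972 (1419 bp), lay in the control peak from 143642370 to 143646415 (4046 bp), whose last 2443 bp held no gTKO peak. Next came gTKO peaks of only 156, 151 and 186 bp, in lists whose smallest width was 150 bp. These 3 gTKO peaks all lay in the widest control peak of the window, from 143646795 to 143652146 (5352 bp), which ranked 8 of 57267 by width in the placed control list. They covered 9.21% of it and began 723, 3530 and 5132 bp from its start. The control peak from 143652315 to 143654462 (2148 bp) had no partner, although a gTKO peak ended 202 bp before it. A control peak from 143654624 to 143655237 (614 bp) had none either. Last in the stretch were 5 gTKO peaks, of 1012, 499, 354, 150 and 404 bp. Together they covered 55.4% of the control peak from 143655486 to 143659853 (4368 bp). Among the 3 widest control peaks of this stretch, the gTKO cover was thus lowest in the widest one.

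**Figure D2:**
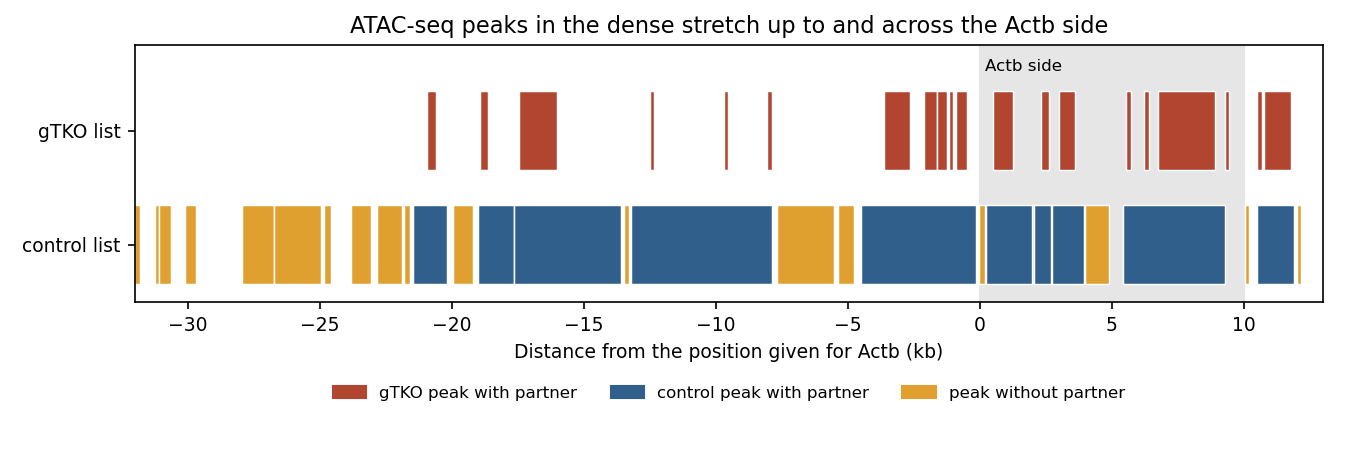
The same peaks from 32 kb below to 13 kb above the position given for Actb, gTKO list in the upper row and control list in the lower row, with orange for peaks without a partner. It shows 3 narrow gTKO peaks in the control peak of 5352 bp, and the gTKO peak of 2143 bp on the Actb side stands opposite the control peak of 3851 bp.

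On the Actb side itself, both lists held a wide peak, and the gTKO peak was the narrower of the 2. The widest gTKO peak there, from 143666761 to 143668903 (2143 bp), was the second widest of the window in that list and ranked 223 of 49558 by width. It lay in the control peak from 143665434 to 143669284 (3851 bp), which ranked 45 of 57267. That control peak also held gTKO peaks of 205 and 207 bp and shared 11 bp with a gTKO peak of 170 bp, so that 66.6% of it was covered. Its lower part, toward the dense stretch, was the less covered one, since the wide gTKO peak began 1327 bp after the control start and ended 381 bp before the control end. Below it, gTKO peaks of 745, 311 and 586 bp lay inside the control peaks from 143660226 to 143661967 (1742 bp), of 642 bp, and from 143662749 to 143663940 (1192 bp). The gTKO cover of these 3 control peaks was 42.8, 48.4 and 49.2%. The control peaks from 143659966 to 143660213 (248 bp) and from 143663991 to 143664891 (901 bp) had no partner. In all, the gTKO list covered 4367 bp on the Actb side and the control list 8576 bp.

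Between Actb and Fscn1 the control peaks had partners about as often as in the whole list. None of the 11 gTKO peaks lacked a partner, against 9.75% in the whole gTKO list, and 3 of 13 control peaks did (23.1%, against 27.0%). The gTKO list covered 5285 bp and the control list 7394 bp. Just above the Actb side, gTKO peaks of 167 and 1026 bp covered 85.9% of the control peak from 143670508 to 143671896 (1389 bp). The first of these gTKO peaks and the control peak had the same start. The other matched peaks were 1 to 1, with widths of 212 to 806 bp in the gTKO list and 295 to 945 bp in the control list. In all 9 of these pairs the control peak was the wider one, and the median ratio of gTKO to control width was 0.719. Over all 37878 such pairs of the placed chromosomes, the control peak was wider in 79.5% and the median ratio was 0.866. They included gTKO peaks of 799, 806 and 665 bp opposite control peaks of 945, 810 and 682 bp. The control peaks without a partner were of 150, 156 and 527 bp. The last of these, from 143685634 to 143686160, was the only one of at least 500 bp above the Actb side.

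On the Fscn1 side, the control peak was seen as 3 adjoining gTKO peaks. gTKO peaks of 618, 440 and 1304 bp, separated by 15 and 22 bp, lay in the control peak from 143721478 to 143724414 (2937 bp) and covered 80.4% of it. The widest gTKO peak, from 143722806 to 143724109, ended 305 bp before the control peak did. Next to it, gTKO peaks of 402 and 481 bp stood opposite control peaks of 832 and 525 bp. A control peak of 150 bp had no partner. The gTKO cover was 3245 bp and the control cover 4444 bp, so that the gTKO list held 73.0% of the control cover on the Fscn1 side and 50.9% on the Actb side. No measure of error applies to this difference. The whole-list value of 77.1% was above both.

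Above Fscn1 the peaks were sparse and mostly narrow in both lists. The gTKO list covered 3680 bp and the control list 4841 bp over 70 kb. Of 10 gTKO peaks, 3 had no partner (30.0%, against 9.75% in the whole gTKO list), the widest of 196 bp. At 150 to 199 bp, 26.2% of peaks in the whole gTKO list had no partner. The remaining gTKO peak of the window without one, of 151 bp, lay at its lower end, 2553 bp from the nearest control peak. Of 12 control peaks, 6 had no partner (50.0%, against 27.0% in the whole control list), and they were 157 to 293 bp wide. In the whole control list, 66.4% of peaks of 150 to 199 bp and 38.5% of those of 200 to 299 bp had none. The widest gTKO peak, from 143759699 to 143760590 (892 bp), stood opposite a control peak of 971 bp, and a gTKO peak of 518 bp lay in a control peak of 638 bp. gTKO peaks of 255 and 324 bp covered 56.0% of the widest control peak there, from 143762220 to 143763253 (1034 bp). The gTKO peak was the wider one in 2 of 5 pairs there, of 373 and 407 bp against 299 and 320 bp in the control list. Over the whole window, 1 to 1 pairs numbered 31, with the control peak wider in 26 (83.9%), against 79.5% of all such pairs. At the edges, the first gTKO peak inside the window was of 485 bp and the next one below it, outside, of 175 bp, while the control peaks were of 628 and 434 bp. At the upper edge, the last gTKO peak inside was of 196 bp and the next one outside of 231 bp, with control peaks of 228 and 184 bp.

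**Figure D3:**
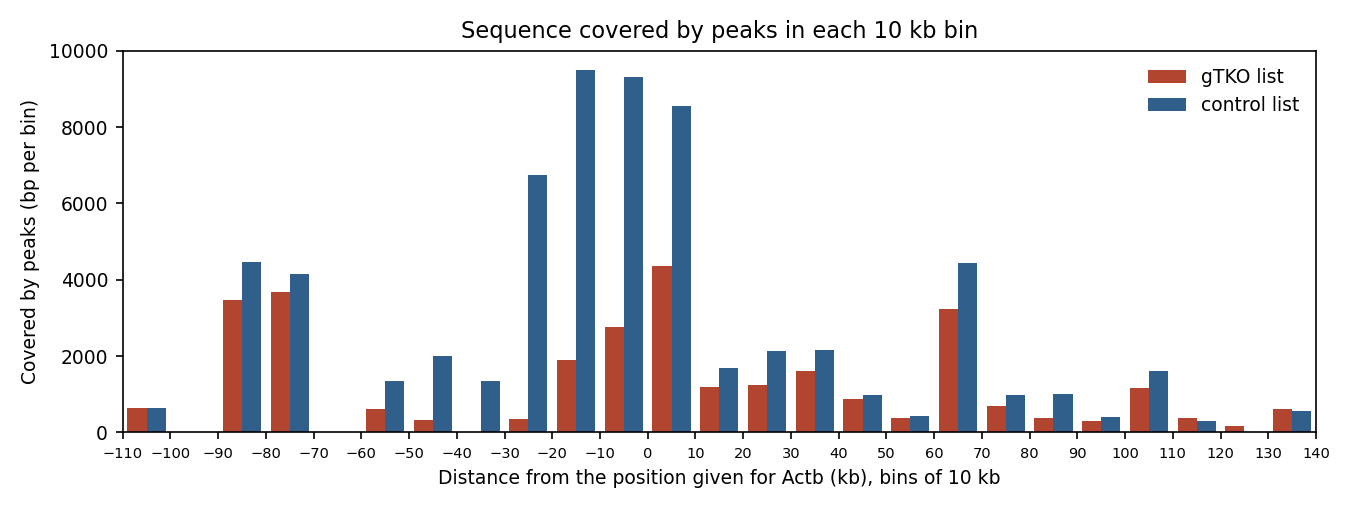
Sequence covered by peaks, in bp, in each of the 25 bins of 10 kb of the window, gTKO list left and control list right in each bin, by distance from the position given for Actb. In the 3 bins directly below Actb the gTKO list covers 362, 1899 and 2756 bp and the control list 6739, 9504 and 9311 bp.

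In bins of 10 kb, the gTKO cover stood in no fixed proportion to the control cover. It increased stepwise toward Actb, with 362, 1899, 2756 and 4367 bp in the 4 bins from 30 kb below to 10 kb above the Actb position. The control cover in the same bins was 6739, 9504, 9311 and 8541 bp, with the highest value in the second of them. These 4 were the bins of the window with at least 5 kb of control cover, and in 3 of them the gTKO cover was under 50% of the control cover. Over the placed chromosomes, 46 of 145 such bins were so (31.7%), and the median gTKO cover in them was 69.2% of the control cover (quartiles 45.1 and 82.2%). A bin grid and this minimum were set after the lists had been seen. In 4 bins the gTKO list covered more than the control list, by 8, 55, 74 and 178 bp, and the highest gTKO cover among these was 636 bp.

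Control peaks without a partner were found among wide members as well as narrow ones. Narrow peaks most often lack a partner, and in the window 13 of 15 control peaks of 150 to 199 bp had none, against 66.4% in the whole list. Wide control peaks seldom lack one, yet 8 of 22 members of 500 to 999 bp had none (36.4%), against 3.65% of such peaks in the whole list. Of the members of 1 kb and wider, 3 of 17 had none, against 0.469%. Of these 11 unmatched control peaks of at least 500 bp, 10 lay on the Actb side or below it. Of the 7 control members of at least 2 kb, 3 had under 50% of their sequence covered in the gTKO list, against 28 of 964 such peaks in the whole list (2.90%). All 3 lay in the 30 kb below Actb. The gTKO list had 2 or more peaks opposite a single control peak in 9 of 79 cases (11.4%), against 5.28% in the whole list. The locus was picked for wide control peaks with little gTKO cover, so these shares describe that choice as well.

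**Figure D4:**
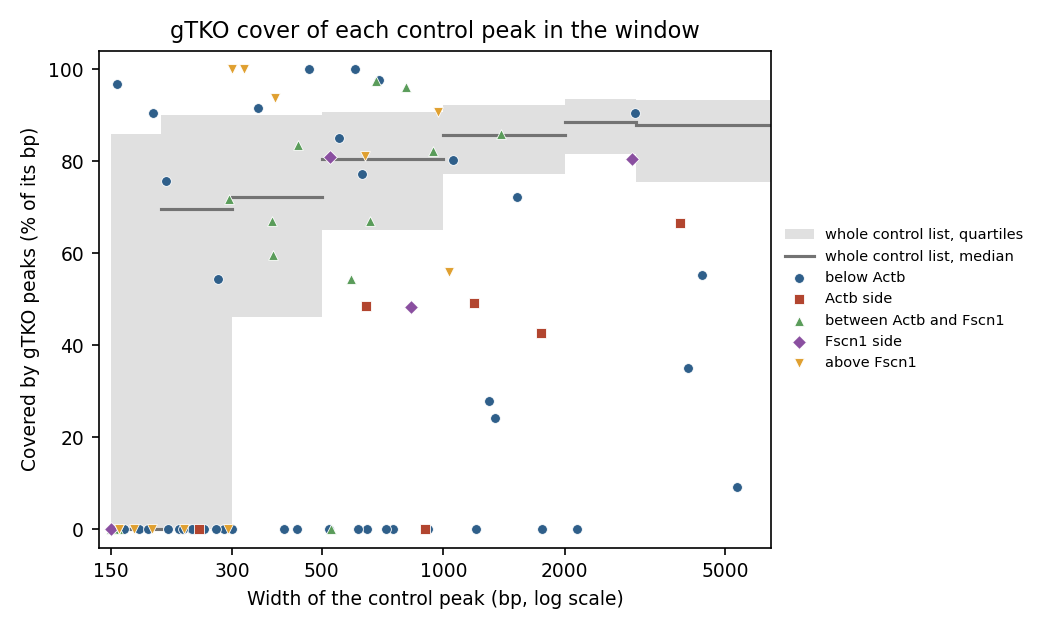
Share of each of the 79 control peaks of the window that is covered by gTKO peaks (percent of its bp) against its width in bp on a log axis, with a different marker for each stretch. Grey boxes and lines give the quartiles and the median of the whole control list by width class. The control peaks of 5352, 4046 and 2148 bp below Actb sit at 9.21, 35.1 and 0%, and the Fscn1 side peak of 2937 bp sits at 80.4%.

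The window was set beside 3 others of the same length, centred on the 3 widest control peaks outside it, a choice that favours loci with much control cover. The window on chromosome 2 around the control peak from 26448600 to 26461312 had 36608 bp of gTKO cover and 66604 bp of control cover, with 54.0% of the control sequence shared. On chromosome 8, the window around 87496961 to 87504520 had 25947 bp in the gTKO list and 38111 bp in the control list (67.3% shared). The window around 73236164 to 73242758, also on chromosome 8, had 33748 bp in the gTKO list and 63886 bp in the control list (52.4% shared). The Actb and Fscn1 window, at 44.7%, had the lowest share of the 4. The gTKO list had 4 of 60 peaks without a partner in the Actb and Fscn1 window and none of 61, 40 and 57 in the other 3. The 4 were narrow, 151 to 196 bp wide, and their share of 6.67% was below the 9.75% of the whole gTKO list. In the Actb and Fscn1 window, 38 of 79 control peaks had no partner (48.1%). In the other 3 windows, in the order given, 34 of 77 (44.2%), 12 of 43 (27.9%) and 31 of 73 (42.5%) had none, against 27.0% in the whole list, so that the shares in 2 of these windows were close to that around Actb and Fscn1. With 1 list per genotype, these differences between loci carry no error and were not tested.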

How the data were processed

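The authors deposited 1 list of ATAC-seq peaks per genotype, as sequence name, start and end in bp, with no other unit, score or count. Bowtie2, Picard, MACS2 and bedtools are among the tools, and mm9 is the build, per the submitters' processing notes. How peaks were thresholded, reads filtered or libraries pooled was not given in the sources used here. The depth is unknown, so no counting limit per library can be given. The series' 16 RNA-seq libraries are not analysed here. The members and lists were chosen with earlier results of these data known. Positions are 1-based. Peaks named one by one are control peaks of at least 1 kb, gTKO peaks and peaks without a partner of at least 500 bp, the widest of each stretch and those at the window edges; others are given as partners of these or as ranges. Background values use chromosomes 1 to 19, X and Y. Overlap code was tested on simulated lists. Alternatives concerned the overlap rule, width, window, joined peaks, gene sides and chaining of peaks. Calculations used Python 3.11.15, numpy 2.4.6 and scipy 1.17.1, and figures matplotlib 3.10.9.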

Additional observations from a re-analysis of the deposited data

How the results depend on the processing

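Of 32 alternative values, 24 stayed within 1.5 times of the reported one. Among them were all of those for control sequence not covered in the gTKO list. In the window it was 35798 bp (32650 to 36508 bp under the alternatives). In the distal stretches it was 30175 bp (27002 to 30175 bp). On the gene sides it was 5623 bp (5623 to 8074 bp), with the highest value for sides from 5 kb before to 15 kb after. With peaks of at least 300 bp in both lists, 1 gTKO peak and 17 control peaks had no partner, against 4 and 38, and the gTKO sequence outside control peaks fell to 802 bp, against 1402 bp. This setting tests fewer peaks, since it leaves out the 20 of 60 gTKO peaks and 30 of 79 control peaks under 300 bp. When the overlap had to reach 50% of both peaks, 31 of 60 gTKO peaks and 50 of 79 control peaks had no partner. A narrow gTKO peak cannot cover that much of a wide control peak. Whole-list shares were not calculated under either setting, so these counts have no background. With the window shortened by 50 kb at each end, 1 gTKO peak and 34 control peaks had no partner. Then 448 bp of gTKO sequence lay outside control peaks. The whole-list shares without a partner were 9.75% and 27.0%, but these 2 counts were not turned into shares of the shortened window. Control peaks no more than 3 kb apart formed 14 stretches, against 30 with a largest gap of 1 kb and 6 with 10 kb. No paired analysis was possible because the libraries of a genotype share 1 list, which also means that none could be left out. The depth behind either list is unknown, so what it limits could not be measured.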

Other observations

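When the 38654 bins of 10 kb with any control peak on the placed chromosomes were ranked by gTKO cover minus control cover, the 3 bins directly below Actb stood at ranks 11, 4 and 10 from the lowest, in order of position. The Actb side bin stood at rank 34, and the bins from 50 to 40 kb and from 40 to 30 kb below Actb at ranks 220 and 355. A bin can lose no more than its control cover, so this ranking favours bins with much of it, and only 145 bins held at least 5000 bp. Of those 145, 46 (31.7%) had a gTKO cover under 50% of the control cover. The locus was picked for wide control peaks with little gTKO cover, so the ranks restate that choice. The ranking was made after the lists had been seen and describes these 2 lists only.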
